A study of Homo sapiens with 6 samples.

Results

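Mucins are very large glycoproteins that carry dense clusters of O-linked sugars. The 10 mucin genes described here were chosen by name, and with the result of this contrast known, out of the 42902 genes of the table. MUC5AC, MUC2, MUC5B and MUC6 make the secreted, gel-forming mucins, which link end to end through cysteine-rich domains into the polymers of mucus. MUC1, MUC13, MUC16, MUC3A, MUC12 and MUC4 make membrane mucins, which span the plasma membrane once and hold a glycosylated rod above the cell surface. The healthy pancreatic duct makes little MUC5AC, whereas gastric surface cells, airway goblet cells and many pancreatic tumours and their precursors make it, and MUC1 is carried by most ductal and tumour cells.

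RNA was sequenced from PANC-1, an established human cell line from a pancreatic ductal carcinoma. The shRRM2 group holds 3 libraries of PANC-1 in which a short hairpin targets RRM2, the small subunit of ribonucleotide reductase, and the shNC group holds 3 libraries of PANC-1 carrying a non-targeting hairpin. The labels call the genotype of the control cells WT, and they state neither the number of hairpins nor whether the libraries of a group are separate cultures, so the p-values cover only library-to-library spread, possibly of technical origin. The comparison asks which genes change when RRM2 is lowered.

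Total counts ran from 16606947 to 23300433 per library, so that 1 CPM (reads scaled to library size) rested on 16.6 to 23.3 reads. RRM2 stood at 40.5, 40.6 and 39.5 CPM in shRRM2 libraries, against 204, 192 and 203 CPM in shNC libraries, a log2 fold change of −2.31. Of the ductal markers, KRT8, KRT18 and KRT7 averaged 1630, 1070 and 673 CPM in shRRM2 and 1080, 786 and 706 CPM in shNC, while KRT19 had 6, 6 and 6 counts in shRRM2 and 2, 2 and 0 in shNC. No marker of acinar, fibroblast or immune cells passed the filter on low counts. In bulk RNA, more cells that make a mucin and more mucin RNA per cell cannot be told apart.

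Promoter sequence from RefSeq (GRCh38.p14) is shown for MUC1, the most abundant mucin, and for MUC13, MUC2 and MUC3A, the mucins with the largest fold changes among those in the promoter table. That table held promoters of 7 of the 10 mucins, 9 windows in all, each from 250 bases before to 50 bases after a start site. Capitals mark matches on either strand to any of 6 motifs. The motif of AP-1, the FOS and JUN factor, was searched as TGANTCA. The Y-box, which the YBX1 protein of the series title is named for, was searched as ATTGG. The letters searched for the GC box of SP1 were GGGCGG. For the STAT element they were TTCNNNGAA, for the TATA box TATAAA and for the cyclic AMP response element TGACGTCA.
MUC1 promoter (chr1:155192866-155193165, minus strand): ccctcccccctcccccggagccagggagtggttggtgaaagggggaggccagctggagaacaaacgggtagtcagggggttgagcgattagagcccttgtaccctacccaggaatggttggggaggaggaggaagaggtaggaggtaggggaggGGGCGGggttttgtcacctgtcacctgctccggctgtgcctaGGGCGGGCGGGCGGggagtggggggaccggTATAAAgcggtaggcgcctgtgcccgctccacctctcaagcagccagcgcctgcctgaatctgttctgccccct
MUC13 promoter (chr3:124934702-124935001, minus strand): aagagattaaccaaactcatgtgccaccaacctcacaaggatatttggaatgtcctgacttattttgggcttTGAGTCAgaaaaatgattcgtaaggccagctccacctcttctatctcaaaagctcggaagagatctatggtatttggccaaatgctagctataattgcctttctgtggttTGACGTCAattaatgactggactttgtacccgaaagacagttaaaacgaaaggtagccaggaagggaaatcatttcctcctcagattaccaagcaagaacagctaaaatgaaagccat
MUC2 promoter (chr11:1074624-1074923, plus strand): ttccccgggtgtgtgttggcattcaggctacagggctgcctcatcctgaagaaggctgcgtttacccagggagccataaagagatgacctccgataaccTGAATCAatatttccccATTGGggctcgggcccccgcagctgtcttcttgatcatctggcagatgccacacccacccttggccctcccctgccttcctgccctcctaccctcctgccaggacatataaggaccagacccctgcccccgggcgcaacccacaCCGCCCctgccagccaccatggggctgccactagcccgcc
MUC3A promoter (chr7:100949284-100949583, plus strand): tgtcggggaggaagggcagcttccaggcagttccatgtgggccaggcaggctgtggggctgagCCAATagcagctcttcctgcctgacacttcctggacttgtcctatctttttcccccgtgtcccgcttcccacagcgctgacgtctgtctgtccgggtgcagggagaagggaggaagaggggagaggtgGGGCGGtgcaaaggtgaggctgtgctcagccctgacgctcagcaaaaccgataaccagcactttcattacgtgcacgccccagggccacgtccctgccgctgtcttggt

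The window of MUC1 held 4 GC boxes, which begin 96, 54, 50 and 46 bases before the start site, the last 3 overlapping, and a TATA box 24 bases before it. MUC13 had an AP-1 match 178 bases before its start and the cyclic AMP element 68 bases before it. MUC2 had an AP-1 match 151 bases and a Y-box 134 bases before its start and a GC box 10 bases after it, and MUC3A had a Y-box 187 bases and a GC box 59 bases before its start. Among the windows not printed, the first of MUC16 held a Y-box and a GC box, its second an AP-1 match, that of MUC12 a TATA box, and that of MUC4 a GC box and a STAT element. Over 35116 windows of the same length, 7.71% held an AP-1 match, 34.6% a Y-box, 45.0% a GC box, 7.66% a STAT element, 11.5% a TATA box and 1.85% the cyclic AMP element. The E-box (CANNTG), not put in capitals, was in 68.7% of all windows, and the SMAD repeat (GTCTAGAC), held by 0.202% of them, was in no mucin window. A match is a description of the letters and not a site of binding.

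Most of the measured mucin transcripts were higher in shRRM2 than in shNC, and MUC5AC had the largest fold change. Of the 9 mucins that passed the filter on low counts, 7 were called higher in shRRM2, 0 were called lower and 2 were not called, at an adjusted p of 0.05 in edgeR's quasi-likelihood test. In this contrast 52.1% of all 15866 tested genes were called, 26.0% higher and 26.1% lower. At a log2 fold change of 1 or more, 6 mucins were called higher, beside 5.08% of all tested genes. In 8 mucins all shRRM2 libraries lay above all shNC libraries in CPM, as in 29.2% of all tested genes. The median log2 fold change was −0.01 over all tested genes. Since the mucins were chosen with this contrast known, these counts and the values below are a description of the members and no test of the family.

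**Figure D1:**
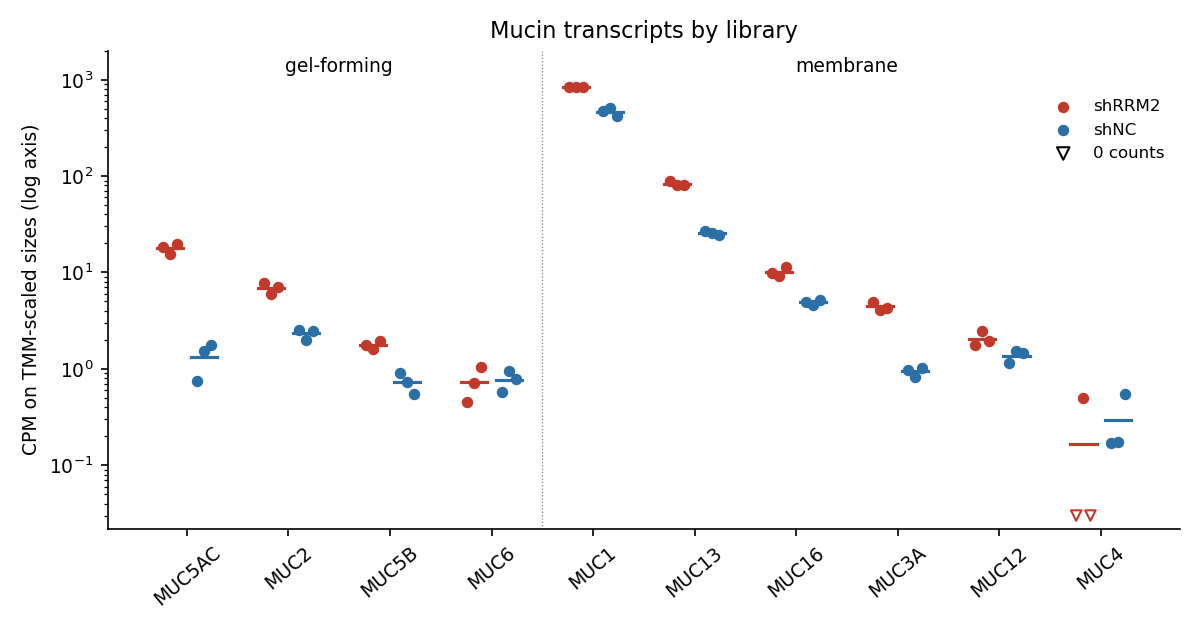
Level of each mucin in each library, in CPM on a log axis, with the group mean as a line and libraries of 0 counts as open triangles. In 8 of the 10 mucins the shRRM2 points lie above all shNC points, MUC5AC has the widest gap, and MUC6 and MUC4 overlap between the groups.

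Among the gel-forming mucins, MUC5AC (Gene ID 4586, chromosome 11, 1157953 to 1201138, GRCh38) is the main mucin of gastric surface cells and one of the mucins of airway mucus. It had 326, 308 and 360 counts in shRRM2 libraries, against 13, 35 and 29 counts in shNC libraries. On the scaled library sizes this was 18.4, 15.5 and 19.9 CPM in shRRM2, against 0.742, 1.52 and 1.76 CPM in shNC. The lowest shRRM2 library stood several-fold above the highest shNC library, and shNC replicate 1 was the lowest of all. The means were 17.9 ± 2.23 CPM in shRRM2 and 1.34 ± 0.531 CPM in shNC (SD, n = 3 each), a ratio of 13.4 and a log2 fold change of 3.73 (SE 0.183, 95% interval 3.35 to 4.10).

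MUC2 (Gene ID 4583, chromosome 11, 1074874 to 1110508), the mucin of intestinal goblet cells, was also higher. It stood at 7.80, 5.93 and 7.01 CPM in shRRM2 libraries, against 2.51, 1.99 and 2.49 CPM in shNC libraries. The groups did not overlap, and the log2 fold change was 1.58 (SE 0.188, 95% interval 1.19 to 1.96). MUC5B (Gene ID 727897, chromosome 11, 1223066 to 1262172), a mucin of airway and salivary glands, was much scarcer, with 31, 32 and 35 counts in shRRM2 libraries, against 16, 17 and 9 counts in shNC libraries. Its means were 1.76 ± 0.161 CPM in shRRM2 and 0.732 ± 0.184 CPM in shNC (SD, n = 3 each), again without overlap, and its log2 fold change was 1.25 (SE 0.351, 95% interval 0.54 to 1.97). MUC5B passed the count minimum in all 3 shRRM2 libraries but in 2 shNC libraries.

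MUC6 (Gene ID 4588, chromosome 11, 1012823 to 1036718), the mucin of deep gastric and pyloric glands, did not follow the other gel-forming genes. It had 8, 14 and 19 counts in shRRM2 libraries, against 10, 22 and 13 counts in shNC libraries, and the groups overlapped. The log2 fold change was −0.09 with a 95% interval of −0.96 to 0.79 and an adjusted p of 0.881 in edgeR's test. Its sign turned to 0.16 without shRRM2 replicate 1 and to 0.11 without shNC replicate 2. A difference of MUC6 inside this interval was not detectable at this depth.

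Among the membrane mucins, MUC1 (Gene ID 4582, chromosome 1, 155185824 to 155192915), whose cytoplasmic tail binds kinases and catenins, was by far the most abundant. It had 14783, 16714 and 15321 counts in shRRM2 libraries, against 8345, 11629 and 6913 counts in shNC libraries. In CPM it stood at 835, 840 and 845 in shRRM2, against 476, 504 and 419 in shNC. The shRRM2 libraries were close together and the shNC libraries spread more widely, with SDs of 4.98 and 43.0 CPM. The log2 fold change was 0.85 (SE 0.0607, 95% interval 0.71 to 0.99), the smallest among the called mucins.

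MUC13 (Gene ID 56667, chromosome 3, 124905442 to 124934751), a short membrane mucin of the gut and bile duct, was the next in abundance. It stood at 89.1, 80.0 and 81.3 CPM in shRRM2 libraries, against 26.8, 25.5 and 24.2 CPM in shNC libraries. Both groups were tight, and the log2 fold change of 1.71 had an SE of 0.0613 and a 95% interval of 1.58 to 1.83. MUC16 (Gene ID 94025, chromosome 19, 8848844 to 9065751), which carries the CA125 antigen and binds mesothelin, stood at 9.83, 9.25 and 11.4 CPM in shRRM2 libraries, against 4.91, 4.64 and 5.22 CPM in shNC libraries. Its groups did not overlap, and its log2 fold change was 1.05 (SE 0.143, 95% interval 0.76 to 1.34).

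MUC3A (Gene ID 4584, chromosome 7, 100949534 to 100968347), a membrane mucin of the intestinal brush border, had the largest fold change of the membrane group. It stood at 4.97, 4.12 and 4.30 CPM in shRRM2 libraries, against 0.970, 0.823 and 1.03 CPM in shNC libraries. Its log2 fold change was 2.25 (SE 0.252, 95% interval 1.74 to 2.76), and the shNC value rested on 17, 19 and 17 counts. MUC3B, a near-identical copy of MUC3A, had no entry under that name among the counted genes. Reads shared by such copies leave the MUC3A count uncertain.

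MUC12 (Gene ID 10071, chromosome 7, 100969565 to 101018936), the neighbour of MUC3A, stood at 1.75, 2.46 and 1.93 CPM in shRRM2 libraries, against 1.14, 1.52 and 1.46 CPM in shNC libraries. The groups did not overlap, but the log2 fold change of 0.58 (95% interval −0.02 to 1.17) did not pass edgeR's test (adjusted p = 0.0973). The antisense gene MUC12-AS1 within the same locus had 16, 18 and 11 counts in shRRM2 libraries, against 9, 8 and 8 in shNC libraries, and since the strand setting of the counting is not given, its reads and those of MUC12 cannot be told apart. MUC4 (Gene ID 4585, chromosome 3, 195746771 to 195811929), a membrane mucin that binds ERBB2 and is absent from the normal pancreas, did not pass the filter. It had 0, 10 and 0 counts in shRRM2 libraries, against 3, 4 and 9 counts in shNC libraries. A count of 0 allows up to 3 counts, or 0.170 CPM in shRRM2 replicate 1 and 0.165 CPM in shRRM2 replicate 3, for counting error only. A difference in MUC4 was not detectable at this depth.

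**Figure D2:**
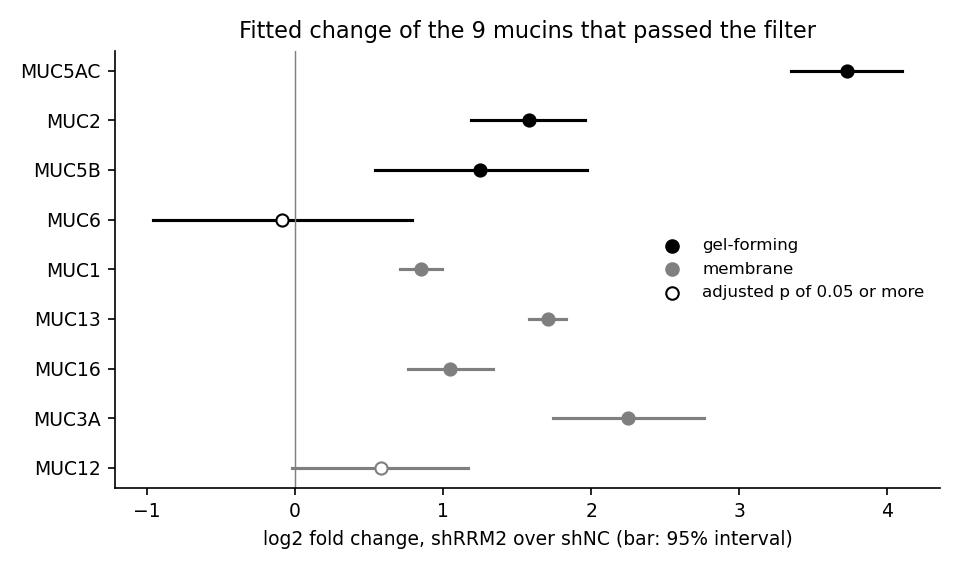
Fitted log2 fold change of shRRM2 over shNC for the 9 mucins that passed the filter, with 95% intervals as bars, filled points for adjusted p under 0.05, black for gel-forming and grey for membrane mucins. MUC5AC lies apart at 3.73, the called membrane mucins run from 0.85 to 2.25, and the intervals of MUC6 and MUC12 include 0.

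In summed CPM the gel-forming mucins differed by a larger ratio than the membrane mucins, but by a smaller one once MUC5AC and MUC1 were both left out. The summed level of the 4 gel-forming genes was 28.4, 23.7 and 29.8 CPM in shRRM2 libraries, against 4.74, 5.20 and 5.58 CPM in shNC libraries, a ratio of 5.28. The summed level of the 6 membrane genes was 941, 937 and 944 CPM in shRRM2 libraries, against 510, 536 and 452 CPM in shNC libraries, a ratio of 1.88. MUC1 made up most of the membrane sum in both groups, and MUC5AC most of the gel-forming sum in shRRM2. Without MUC5AC the gel-forming sum was 9.41 ± 1.01 CPM in shRRM2 and 3.83 ± 0.156 CPM in shNC (SD, n = 3 each), a ratio of 2.46. Without MUC1 the membrane sum was 100.3 ± 4.79 CPM in shRRM2 and 33.0 ± 0.855 CPM in shNC (SD, n = 3 each), a ratio of 3.04.

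Together the 10 mucins took 0.0981% ± 0.00117 of all counts in shRRM2 and 0.0498% ± 0.00415 in shNC (SD, n = 3 each). Within the mucin counts, the gel-forming share was 2.93%, 2.47% and 3.06% in shRRM2 libraries, against 0.920%, 0.960% and 1.22% in shNC libraries. The groups did not overlap, and membrane mucins made up nearly all mucin counts in every library. The share rested on 503 of 17156, 472 of 19103 and 541 of 17655 mucin counts in shRRM2, against 83 of 9024, 120 of 12502 and 92 of 7540 in shNC. Without MUC5AC the gel-forming share was 0.990% in shRRM2 and 0.766% in shNC, and with MUC1 left out of the total it was 21.4% ± 1.72 in shRRM2 and 13.5% ± 1.24 in shNC (SD, n = 3 each), a ratio of 1.58 where the share of all 10 had a ratio of 2.73. MUC1 took 86.8% ± 0.664 of mucin counts in shRRM2 and 92.4% ± 0.670 in shNC, and MUC13 took 8.62% ± 0.491 in shRRM2 and 5.07% ± 0.318 in shNC (SD, n = 3 each).

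The make-up of the gel-forming class changed with MUC5AC. MUC5AC held 64.8%, 65.3% and 66.5% of gel-forming counts in shRRM2 libraries, against 15.7%, 29.2% and 31.5% in shNC libraries. MUC2 held 25.3% ± 2.00 in shRRM2 and 45.3% ± 7.37 in shNC, so the leading gel-forming transcript was MUC5AC in shRRM2 and MUC2 in shNC (SD, n = 3 each). MUC5B held 6.47% in shRRM2 and 14.4% in shNC, and MUC6 held 2.69% in shRRM2 and 14.8% in shNC. Among membrane mucins other than MUC1, MUC13 was the largest part in both groups. It held 83.2% of their counts in shRRM2 and 77.2% in shNC, MUC16 held 10.1% in shRRM2 and 14.9% in shNC, MUC3A 4.44% in shRRM2 and 2.85% in shNC, MUC12 2.06% in shRRM2 and 4.16% in shNC, and MUC4 0.174% in shRRM2 and 0.906% in shNC.

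**Figure D3:**
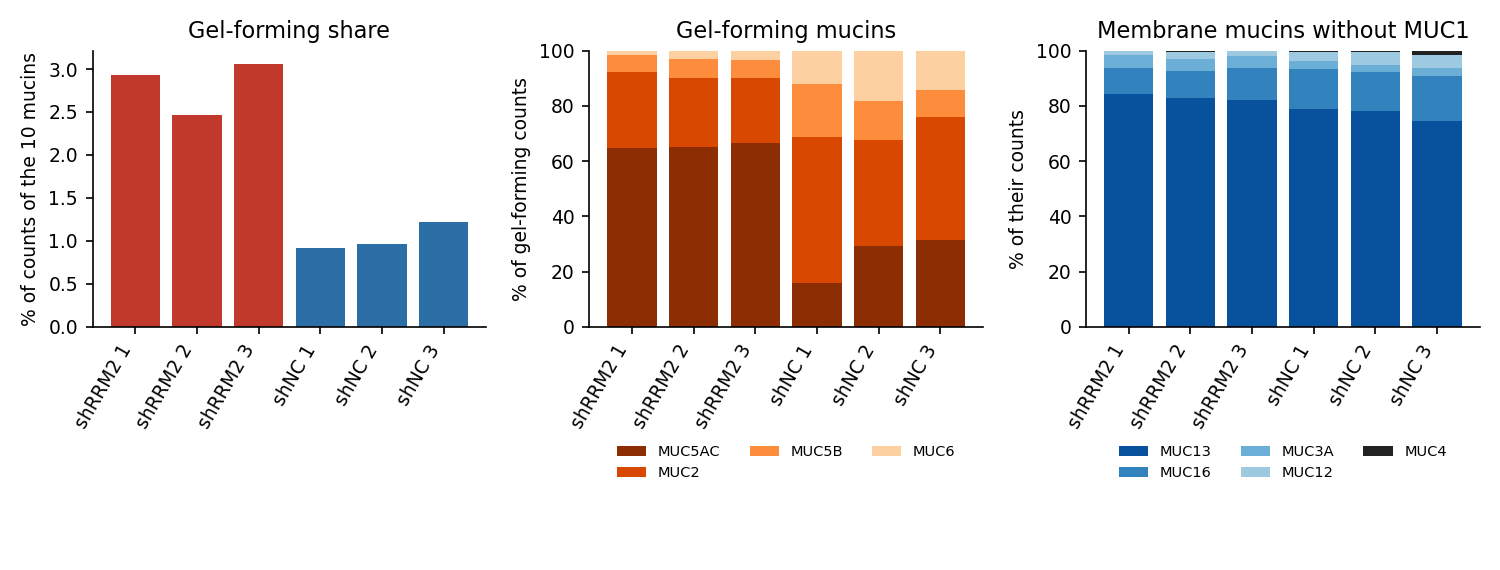
Gel-forming share of the counts of the 10 mucins (left), make-up of the gel-forming counts (middle) and make-up of the membrane counts without MUC1 (right), in percent for each library. The gel-forming share is 2.47% to 3.06% in shRRM2 and 0.920% to 1.22% in shNC, MUC5AC is the largest gel-forming part in each shRRM2 library and MUC2 in each shNC library.

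Levels can be set against each other only per transcript length, taken here from the longest GENCODE v29 transcript, which runs from 2879 bases for MUC13 to 43816 bases for MUC16. In CPM per kilobase, MUC1 led with 201 in shRRM2 and 112 in shNC, and MUC13 followed with 29.0 in shRRM2 and 8.86 in shNC. MUC5AC was at rank 3 in shRRM2 with 1.03 CPM per kilobase and at rank 8 in shNC with 0.0767 CPM per kilobase. The order below it in shRRM2 was MUC2 at 0.546, MUC3A at 0.398, MUC16 at 0.232, MUC12 at 0.122, MUC5B at 0.0985, MUC6 at 0.0918 and MUC4 at 0.00979 CPM per kilobase. Of the neighbours in this order, MUC12 with MUC5B and MUC5B with MUC6 overlapped between libraries. In shNC the order after MUC13 was MUC2 at 0.184, MUC16 at 0.112, MUC6 at 0.0963, MUC3A at 0.0839, MUC12 at 0.0819, MUC5AC at 0.0767, MUC5B at 0.0409 and MUC4 at 0.0173 CPM per kilobase, and from MUC16 downward each overlapped the next. Among the 13248 tested genes with a transcript length, 14.2% stood below MUC5AC per kilobase in shRRM2 and 0.732% in shNC, so that MUC5AC remained a low transcript beside MUC1, which stood above 98.7% of them in shRRM2 and 97.0% in shNC.

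Tandem repeats within the transcripts are shown for 3 mucins because reads from them can be hard to place. The units below are the most frequent exact repeats in the GENCODE v29 transcripts, printed whole and all in lower case since no single part is marked.
MUC1 repeat unit: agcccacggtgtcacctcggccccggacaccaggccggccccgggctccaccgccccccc
MUC2 repeat unit: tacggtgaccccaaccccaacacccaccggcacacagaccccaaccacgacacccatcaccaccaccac
MUC4 repeat unit: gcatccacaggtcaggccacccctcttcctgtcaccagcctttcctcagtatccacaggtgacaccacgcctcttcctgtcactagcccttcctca

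The MUC1 unit has 60 bases and 81.7% GC, and stood in the reference transcript in 19 exact copies. The MUC2 unit has 69 bases with 9 copies, and the MUC4 unit has 96 bases with 7 copies. Of all windows of 100 bases in a transcript, 49.7% recurred within that transcript in MUC12, 32.5% in MUC1, 19.1% in MUC5B, 13.9% in MUC2, 13.1% in MUC4, 10.5% in MUC5AC, 0.316% in MUC16 and 0 in MUC3A, MUC6 and MUC13. No such window of any of the 10 was found in the transcript of another gene in that annotation. This search took only exact matches to annotated transcripts. Whether a MUC3B transcript was among them was not checked, so the result cannot settle which reads MUC3A shares with that copy. How the counting treated reads that fit several places is not given in the sources used here. MUC13 and MUC3A had no repeated window of 100 bases, but held units of 48 and 51 bases in 2 exact copies each. Their log2 fold changes were 1.71 and 2.25, and MUC6, also without repeated windows of 100 bases, was at −0.09. The part of repeats in the counts was not tested.

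The 4 gel-forming genes lie side by side on chromosome 11, and the genes around them had smaller fold changes than MUC5AC, MUC2 and MUC5B. Of 10 tested protein-coding genes in and next to this cluster, 6 were called higher and 0 lower, beside 26.0% and 26.1% of all tested genes. AP2A2, an adaptor subunit of clathrin vesicles next to MUC6, was at 0.14 on the log2 scale. TOLLIP, an adaptor of Toll-like receptor signalling next to MUC5B, was at 0.26, the kinase gene BRSK2 at 0.44 and the phosphatase gene DUSP8 at 0.54. The tetraspanin gene CD151 was at 0.10, but its adjusted p in edgeR's test was 0.0797 without shRRM2 replicate 2 and 0.114 without shNC replicate 3. LOC124902605, between MUC6 and MUC2, was at 0.85, on means of 2.32 CPM in shRRM2 and 1.24 CPM in shNC. Its adjusted p in edgeR's test was 0.0657 without shRRM2 replicate 2, 0.0512 without shNC replicate 1 and 0.137 without shNC replicate 3, so that the call was lost each time. CHID1 at 0.04, TSPAN4 at 0.01, MOB2 at 0.03 and POLR2L at 0.27 were not called, although POLR2L was called without shRRM2 replicate 1 (0.38, adjusted p = 0.0324) in edgeR's test.

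**Figure D4:**
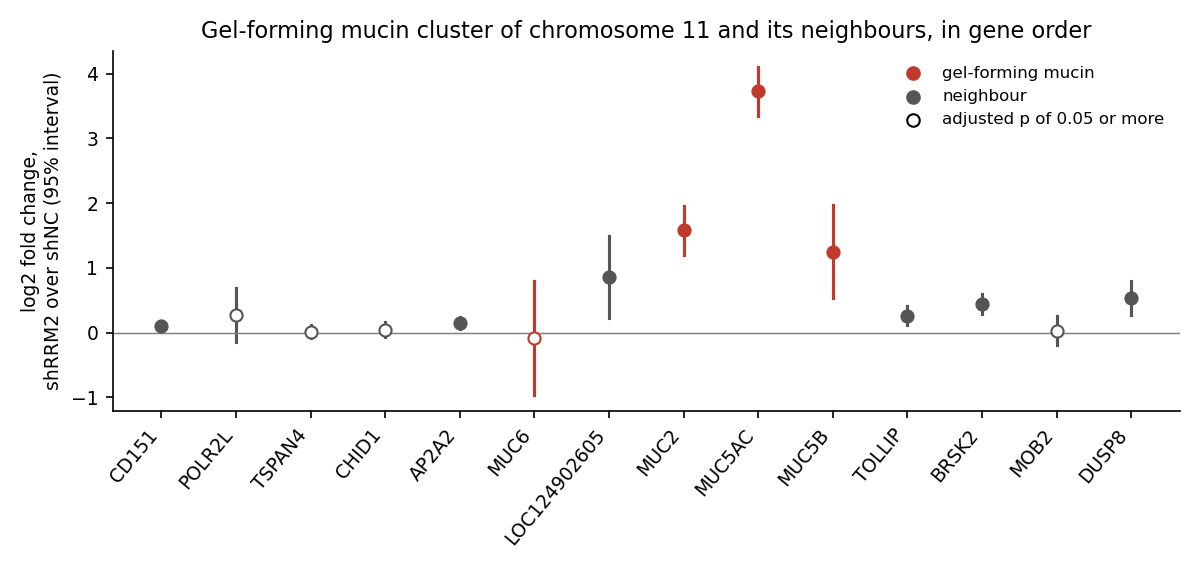
Log2 fold change of shRRM2 over shNC, with 95% intervals, for the 4 gel-forming mucins and the tested protein-coding genes around them, in gene order along chromosome 11. MUC5AC, MUC2 and MUC5B lie above their neighbours at 3.73, 1.58 and 1.25, and MUC6 is at −0.09.

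Around all mucin loci together, 44 neighbours were tested, of which 19 were called higher, 12 lower and 13 were not called. For this and each list that follows, the background is the 52.1% of all tested genes that were called, in near equal parts higher and lower. Beside MUC1, DPM3, a subunit of dolichol phosphate mannose synthase, was higher at 0.75. Beside MUC13, SLC12A8 was higher at 0.55 and the sorting nexin gene SNX4 lower at −0.60. KALRN, also beside MUC13, was at 0.59. Its call was lost when shRRM2 replicate 1 was left out, with an adjusted p of 0.103 in edgeR's test, and likewise for shRRM2 replicate 2 at 0.0705, shNC replicate 1 at 0.0728 and shNC replicate 2 at 0.142, and DESeq2 gave an adjusted p of 0.0655. Beside MUC3A and MUC12, the transporter gene SLC12A9 was lower at −0.55. Beside MUC4, the transferrin receptor gene TFRC was lower at −0.73 and the xylosyltransferase gene XXYLT1 lower at −0.65.

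Other genes for mucins and mucin-like sialomucins were mostly at or near 0 counts. Of 15 listed, 14 had an entry among the counted genes, MUC3B being without one, and 4 were tested, with 2 called higher and 1 lower. CD164, a sialomucin of endosomes and the cell surface, rose to 145 ± 4.09 CPM in shRRM2, against 95.8 ± 3.07 CPM in shNC (SD, n = 3 each; log2 fold change 0.60). PODXL, an anti-adhesive sialomucin, was at −0.09, and MCAM, a cell adhesion molecule, at 0.08. The call of MCAM was lost in edgeR's test when shRRM2 replicate 1 (adjusted p 0.0578), shNC replicate 2 (0.0666) or shNC replicate 3 (0.0542) was left out, and that of PODXL with library size alone (adjusted p 0.105). MUC15, MUCL1, MUCL3 and EMCN had 0 counts in every library, and MUC20, chosen after its values were seen, had 1, 2 and 4 counts in shRRM2 libraries and 5, 4 and 0 in shNC libraries.

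Of 34 listed genes that fold, pack and release gel-forming mucins, 19 were tested, with 7 called higher and 3 lower, close to the share called among all tested genes, and a median log2 fold change of −0.01. MARCKS, a substrate of protein kinase C in granule release, rose by 0.49, and VAMP8, the SNARE protein of mucin granules, by 0.51. RAB3D, a small GTPase of secretory granules, was lower at −0.77. SYTL2, a granule effector chosen after its value was seen, rose to 5.02 ± 0.789 CPM in shRRM2, against 1.78 ± 0.117 CPM in shNC (SD, n = 3 each; log2 fold change 1.48). AGR2, the disulfide isomerase of mucin folding, had 0, 0 and 4 counts in shRRM2 libraries and 0 in each shNC library, and AGR3, TFF1, TFF3 and CLCA1 had 0 counts in every library.

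Among the enzymes of mucin-type O-glycosylation, 16 of 30 were tested, with 5 called higher and 5 lower and a median of 0.10. B3GNT3, which extends core 1 chains, rose by 1.13, and GCNT3, which makes core 2 and core 4 branches, by 0.83. C1GALT1, the core 1 galactosyltransferase, was lower at −0.51, and the sialyltransferase gene ST3GAL4 at −0.30. B3GNT3 stood at 34.5 ± 0.560 CPM in shRRM2 and 15.8 ± 1.85 CPM in shNC, and C1GALT1 at 19.4 ± 0.806 CPM in shRRM2 and 27.7 ± 1.56 CPM in shNC (SD, n = 3 each).

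Of 35 listed transcription factors tied to mucin genes or to mucous and ductal cells, 26 were tested, with 12 called higher and 5 lower and a median of 0.15. HNF4A, among the 12, passed the filter through the shRRM2 libraries alone, and without it the median was 0.10. FOXA1, a pioneer factor of endodermal epithelium, rose to 11.3 ± 0.430 CPM in shRRM2, against 4.34 ± 0.403 CPM in shNC, and STAT3 rose to 343 ± 5.01 CPM in shRRM2, against 242 ± 4.44 CPM in shNC (SD, n = 3 each). ATF1 was lower at −0.41 and SMAD4 at −0.36. Chosen after their values were seen, EHF was at 1.73, SOX9 at 1.31, SPDEF, a factor of goblet cells, at 1.02, and GLI1 at −1.56. The value of EHF rested on only 7, 19 and 7 counts in shNC libraries, and that of GLI1 on 7, 6 and 11 counts in shRRM2 libraries. FOXA2, PDX1, CDX2 and SOX2 had 0 counts in every library.

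Receptors and ligands of the EGF family are known to induce MUC5AC in airway cells. Of 10 listed genes, which are such receptors and ligands and the sheddase ADAM17, 8 were tested. In this list 5 were called higher and 1, ADAM17, lower, with a median of 0.63. The ligand EREG, among the 5, passed the filter through the shRRM2 libraries alone, and without it the median of the other 7 was 0.33. The ligand AREG stood at 8.59, 10.4 and 8.50 CPM in shRRM2 libraries, against 3.60, 1.95 and 2.61 CPM in shNC libraries. HBEGF rose by 0.93 and the receptor ERBB2 by 0.33. The sheddase ADAM17 was at −0.19, and its call was lost in edgeR's test when shRRM2 replicate 1 (adjusted p 0.0575), shRRM2 replicate 2 (0.125) or shNC replicate 2 (0.120) was left out, with library size alone (0.0776), and in DESeq2 (adjusted p 0.0596). Among the partners of membrane mucins, which share ERBB2 and ADAM17 with that list, 15 of 16 were tested, with 7 called higher and 3 lower and a median of 0.05. The membrane and actin linkers MSN and EZR rose by 0.39 and 0.27, while RDX was lower at −0.17 and the sheddase ADAM9 at −0.11. MSLN, the ligand of MUC16, chosen after its value was seen, was at 94.1 ± 4.10 CPM in shRRM2 and 96.7 ± 4.26 CPM in shNC (SD, n = 3 each).

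**Figure D5:**
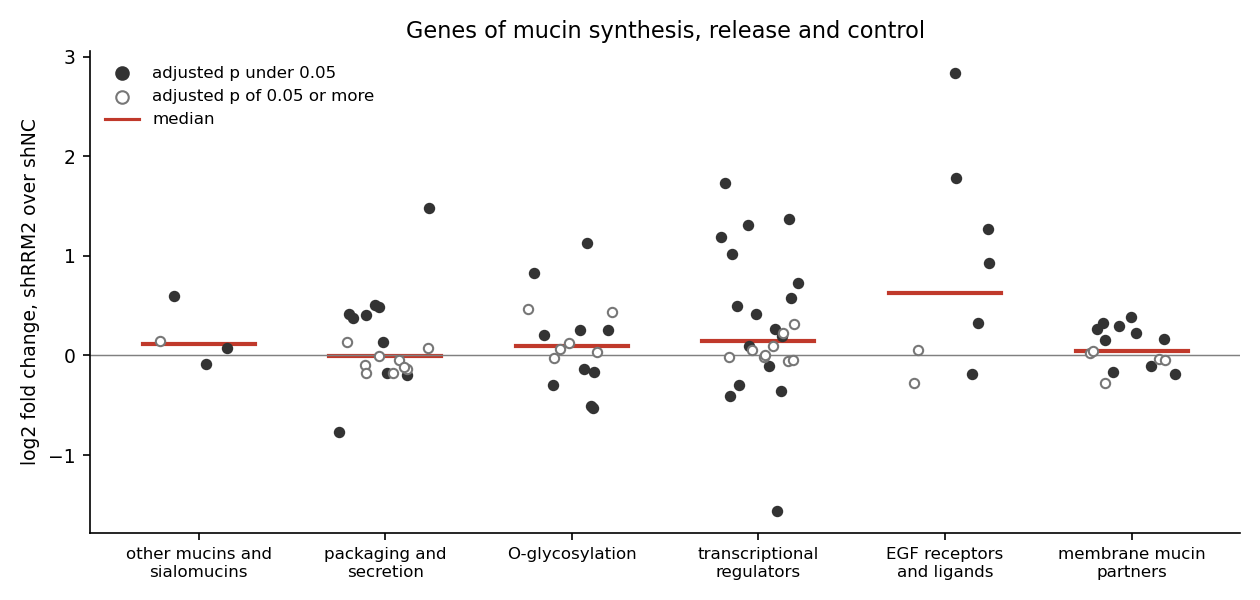
Log2 fold change of shRRM2 over shNC for each tested gene of the 6 lists, filled at an adjusted p under 0.05, with the median of each list as a line. Medians lie between −0.01 and 0.15 except for the EGF receptors and ligands, a list that includes ADAM17, at 0.63 (0.33 without EREG, which passed the filter through shRRM2 alone). Each list has members on both sides of 0.

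Markers of the normal cell types that make MUC5AC or MUC2 were mostly absent. Of 9 gastric foveolar markers, only CLDN18 was tested. It averaged 0.722 CPM in shRRM2 and 1.29 CPM in shNC, a log2 fold change of −0.84, and was not called (adjusted p = 0.0867 in edgeR's test). GKN1, not tested, went the other way, with 20, 11 and 12 counts in shRRM2 libraries, against 6, 3 and 8 in shNC libraries. GKN2 had 1, 1 and 11 counts in shRRM2 libraries and 0 in each shNC library. ANXA10 had 4, 6 and 4 counts in shRRM2 libraries, against 4, 0 and 1 in shNC libraries. For TFF2 the counts were 1, 0 and 2 in shRRM2 libraries, against 0, 2 and 0 in shNC libraries. TFF1, VSIG1, CTSE and CAPN8 had 0 counts in every library. The summed level of the 9 foveolar markers was 1.46 to 2.70 CPM in shRRM2 and 1.26 to 2.24 CPM in shNC. Of 8 intestinal goblet markers, only SPDEF was tested, and TFF3, CLCA1, REG4 and CDX2 had 0 counts in every library. Their summed level was 5.35 to 6.39 CPM in shRRM2 and 2.43 to 2.91 CPM in shNC. Of the 5 endothelial markers, CDH5 and VWF were tested and higher, at 1.44 and 2.45, VWF having passed the filter through the shRRM2 libraries alone, while KDR had 0 counts in every library. The 5 endothelial markers summed to 4.91 to 5.59 CPM in shRRM2 and 1.54 to 1.65 CPM in shNC, and the 6 fibroblast markers, none of them tested, to 1.58 to 1.71 CPM in shRRM2 and 0.546 to 0.628 CPM in shNC. The part of these cell states in the mucin levels was not tested.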

How the data were processed

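RNA from PANC-1 cells was measured in 6 libraries, 3 of shRRM2 and 3 of shNC. The authors deposited raw read counts by gene, made with fastp 0.23.4 and featureCounts on hg38, per the submitters' processing notes. Not given in the sources used here are the aligner, annotation, strand setting and treatment of multi-mapped reads. Columns begin with si where labels have sh, and were matched by gene name and number. Of 42902 Gene IDs, 40120 matched RefSeq (GRCh38.p14), and the unmatched held 1.25% of counts.

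The deposited counts entered edgeR 4.0.16 under R 4.3.3 (filterByExpr, which asks for about 0.56 CPM in 3 libraries, TMM sizes, robust quasi-likelihood fit on group, two-sided) and adjusted by Benjamini-Hochberg over 15866 genes, with a threshold of 0.05. CPM use the TMM sizes. SE is the size of the log2 fold change over the square root of F. An exact permutation test of 3 against 3 has 0.1 as its smallest p and was not run. The test was checked on simulated data, where more of its calls were false than the nominal share, so adjusted p-values near the threshold are less certain than they read. Members and lists were chosen with earlier results of these data known. Named genes are all members, from each list up to 4 called genes of smallest p (2 in each direction, or more of one where the other has fewer), called neighbours at 0.5 or more on the log2 scale, all tested neighbours of MUC5AC, and the 5 genes nearest to MUC5AC and to MUC1 in log2(CPM + 0.5) over the libraries. A few genes taken by this rule are left unnamed, while the counts include them. Alternatives were no filter, RLE factors, unscaled library sizes, 1 CPM in 3 libraries, DESeq2 1.42.0, limma-voom (limma 3.58.1), a replicate block, leaving out each library, a threshold of 0.01, counts per kilobase, and sums without MUC5AC.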

Additional observations from a re-analysis of the deposited data

How the results depend on the processing

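The calls among the 10 mucins stayed at 7 higher and 0 lower under RLE factors, library size alone, no filter, 1 CPM in 3 libraries, DESeq2, limma-voom, a threshold of 0.01 and without any 1 library. The fold change of MUC5AC ran from 3.46 to 3.92 on the log2 scale when 1 library was left out, the lowest without shNC replicate 1. The ratio of the gel-forming sum, 5.28 as reported, was 4.43 per kilobase (1.76 in shRRM2, 0.398 in shNC) and 2.46 without MUC5AC. The ratio of the gel-forming share, 2.73 as reported, was 1.29 without MUC5AC. These follow from the construction, since a single gene is left out or the lengths weigh the genes. MUC6, below 1 CPM, gave no value under the filter of 1 CPM. Depth limits MUC4, MUC6, MUC5B and MUC12, which rest on 0 to 49 counts per library. It also limits the shNC side of MUC5AC, with 13, 35 and 29 counts, and of MUC3A, with 17, 19 and 17 counts.

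Libraries of the same number did not deviate together, with correlations of −0.01, −0.01 and −0.02. This cannot show whether the numbers stand for a pairing in the design, which the labels do not state. With the replicate block, 7 mucins were called, all higher, and 8244 of all genes.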

Other observations

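The genes whose levels lay nearest to those of MUC5AC over the 6 libraries, by Euclidean distance of log2(CPM + 0.5), were LBH at 0.971, ANKRD1, a target of the YAP coactivator, at 1.25, the adhesion gene CEACAM1 at 1.33, the deiodinase gene DIO2 at 1.46 and CRYBG2 at 1.64. LBH stood at 12.9, 12.6 and 12.5 CPM in shRRM2 libraries, against 1.14, 1.78 and 1.82 CPM in shNC libraries. The nearest to MUC1 were SPTAN1, a spectrin, at 0.264, the protease inhibitor gene SERPINE2 at 0.311, progranulin (GRN) at 0.318, COL7A1 at 0.590 and DIAPH1 at 0.670. SERPINE2 stood at 815, 810 and 804 CPM in shRRM2 libraries, against 433, 422 and 435 CPM in shNC libraries. The distance joins level and group difference over 6 libraries, and no p goes with it.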
